A study of Mus musculus with 8 samples.

Results

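On expression arrays that carry several 60-base probes per gene, 6 mouse genes had a probe whose signal differed strongly between BTBR/R and B6 brains beside other probes of the same gene that hardly differed. They were Grn, Syt10, Tox4, Msi2, Mpp6 and Prune2, and Kifc3 had been listed with them. All probes named after these 7 genes in the scanner annotation were taken, which gave 24 of 56605 probes and 7 of 37074 gene names, and they were ordered along each gene by their mm9 position. The genes were chosen for the strain difference itself, so the differences of their own probes are given as a description with no test. Kifc3 had only 1 probe, which differed little between the strains, so the description of the other 6 genes could not be applied to it.

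RNA came from the cerebral cortex plus striatum of 4 male C57BL/6J mice (B6) and 4 male BTBRTF/ArtRbrc mice (BTBR/R), an inbred strain studied for its social behavior. The labels give no treatment, and each mouse had an array of its own. The mice were 4 months old, except BTBR/R replicate 1 at 6 months. All arrays shared 1 slide, on which each strain filled a column of its own, so the effects of strain and of column cannot be told apart.

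A probe on such an array reports the RNA that can pair with its own 60 bases. Probes of the same gene can therefore lie in different exons, in different ends of the transcript or in an RNA known only from a cDNA clone. Grn encodes progranulin, a secreted and lysosomal glycoprotein that is made by microglia and neurons and is cleaved into granulins, and its loss causes a form of frontotemporal dementia. Syt10 encodes a synaptotagmin, a calcium sensor of vesicle exocytosis. Tox4 encodes an HMG-box protein of the PTW/PP1 phosphatase complex, and Msi2 encodes Musashi 2, an RNA-binding regulator of translation known from stem cells. Mpp6 encodes a scaffold of the p55 membrane-associated guanylate kinase family. Prune2 encodes a large protein with a BCH domain, and Kifc3 encodes a kinesin that moves to the minus end of microtubules.

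The probe sequences are shown because each measurement below belongs to a stretch of RNA rather than to a whole gene. They were taken from the scanner files and run 5′ to 3′. The Grn probe is given whole, and of the other probes 30 of the 60 bases are given, which are bases 10 to 39 for Tox4, bases 6 to 35 for the extreme Prune2 probe and bases 1 to 30 elsewhere. Capitals mark a run of at least 16 bases that another probe on the array also holds, on either strand. Extreme means the probe with the largest strain difference in its gene, among probes detected in all 4 mice of 1 strain or both. The first 6 lines are the extreme probes and the last 3 are other probes of the same genes, for comparison.
Grn, extreme, chr11:102294591-102294650, + strand: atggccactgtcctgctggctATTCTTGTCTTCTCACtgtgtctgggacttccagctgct
Syt10, extreme, chr15:89612967-89613026, - strand: aggccaccgtccacaccataaaagcctcca
Tox4, extreme, chr14:52915125-52915184, + strand: gcctacATCAACTTTTAAAAAGAtcagagc
Msi2, extreme, chr11:88571433-88571492, - strand: ttatggagggcctcacactagttctctgag
Mpp6, extreme, chr6:50153057-50153116, + strand: ggaactgattgtgcttcgatgataaggctt
Prune2, extreme, chr19:17296782-17296841, + strand: aaaagtgTGGCTCTCTTAAAGCAtgggatt
Grn, middle probe, chr11:102296724-102296783, + strand: tgatgacttcactaggtgtcctacaaacaa
Mpp6, middle probe, chr6:50148295-50148354, + strand: agccacagtgggtcccaattagctgggtgt
Prune2, probe upstream of the extreme one, chr19:17295833-17295892, + strand: ctgtccacatctttcagtttttcaaaagga

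The shared runs linked the extreme probes to few others. The extreme Grn probe shared 16 bases with a probe of Nhp2l1 on the opposite strand, and that probe differed by -0.03 on the log2 scale between the strains. The extreme Tox4 probe shared 17 bases with a probe of Dbn1 on the opposite strand, which differed by 0.06. The extreme Prune2 probe shared 16 bases with a probe of Brdt on the same strand, which differed by 0.18. All 3 of these other genes' probes were detected on all 8 arrays, and none of them showed a difference near that of the member. No such run was found for the extreme probes of Syt10, Msi2 and Mpp6. The extreme probes held 36.7% to 53.3% G and C, against 28.3% to 53.3% in the other probes of the same 6 genes, 55% in the Kifc3 probe and a median of 41.7% on the array.

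Signals are given below as scaled signals, which are log2 processed signals from which the 75th percentile of their array was subtracted, and a difference is always BTBR/R minus B6. Detection means that the scanning software marked a spot as well above background. The share of probes detected was 64.5% to 66.8% in B6 and 53.5% to 57.2% in BTBR/R. The lowest detected processed signal was 14.5 to 17.8 in B6 and 36.1 to 47.1 in BTBR/R, so a dim probe could be detected in B6 at a signal not detected in BTBR/R. Of the 24 probes, 19 were detected on all 8 arrays, among them the extreme probes of all 6 genes with several probes. No probe was saturated. The number of arrays limits the precision of every value.

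The extreme Grn probe had the largest difference among the 7 genes. Its scaled signal was -0.73, -1.43, -1.16 and -1.24 in B6 replicates 1 to 4 and 8.62, 8.70, 8.45 and 8.38 in BTBR/R replicates 1 to 4. The processed signal was 208 to 340 in B6 and 196430 to 222644 in BTBR/R, so the strains lay far apart without overlap. The difference was 9.68 ± 0.15 (SE, n = 4 and 4), an 818-fold higher signal in BTBR/R. The other Grn probes lay downstream on the same RefSeq transcript, 901 and 1853 bases away in the transcript and 2133 and 3469 bases away in the genome. In the middle probe the scaled signal was -0.33, -0.43, -0.50 and -0.36 in B6 and -0.52, -0.62, -0.49 and -0.38 in BTBR/R. The probe nearest the 3′ end read 3.66 to 3.73 in B6 and 3.61 to 3.69 in BTBR/R. Both probes overlapped between the strains, and their differences were -0.10 ± 0.07 and -0.04 ± 0.04 (SE, n = 4 and 4).

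Syt10 had 2 probes, both on 1 RefSeq transcript, and the extreme one was nearer the 3′ end. It read -3.57, -3.27, -2.70 and -3.00 in B6 and 3.17, 3.04, 2.89 and 2.61 in BTBR/R. Every BTBR/R mouse was higher than every B6 mouse, and the difference was 6.07 ± 0.20 (SE, n = 4 and 4), or 67.0-fold. The other probe, chr15:89621288-89621347, lay 326 bases upstream in the transcript and 8321 bases away in the genome. Its scaled signal was -2.78, -2.83, -3.06 and -2.63 in B6 and -2.59, -2.94, -2.61 and -2.72 in BTBR/R. These values overlapped between the strains, with a difference of 0.11 ± 0.11 (SE, n = 4 and 4). This probe was dim, with processed signals of 67 to 92 in B6 and 70 to 94 in BTBR/R. The extreme probe was dim in B6 as well, at 47 to 86. The lowest detected processed signal was 36.1 to 47.1 in BTBR/R, so a fall at the other probe could be followed only over a short range. With a normexp background correction the extreme Syt10 difference was 5.0 on the log2 scale.

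Tox4 had 3 probes, and the one nearest the 3′ end was extreme. It read -2.43, -2.55, -2.90 and -2.58 in B6 and 2.02, 2.12, 1.81 and 1.80 in BTBR/R. The strains did not overlap, and the difference was 4.55 ± 0.12 (SE, n = 4 and 4), or 23.5-fold. With the normexp correction it was 3.86. The second Tox4 probe, chr14:52912195-52912254, lay 2413 bases upstream on the same RefSeq transcript. It read -0.37, -0.35, -0.47 and -0.32 in B6 and -0.36, -0.18, -0.36 and -0.25 in BTBR/R, which overlapped, with a difference of 0.09 ± 0.06 (SE, n = 4 and 4). The probe nearest the 5′ end, chr14:52911913-52911972, is annotated to another transcript model and was detected on all 4 B6 arrays but 1 of the 4 BTBR/R arrays.

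The extreme Msi2 probe was the 5′-most of 5, and the annotation ties it to a cDNA clone and not to a RefSeq transcript. It read -2.97, -3.50, -3.25 and -3.61 in B6 and 0.97, 0.83, 1.0 and 1.01 in BTBR/R. The strains did not overlap, and the signal was 19.5-fold higher in BTBR/R, a difference of 4.28 ± 0.14 (SE, n = 4 and 4). With the normexp correction it was 3.20. The other Msi2 probes lay 24.1 kb to 418.5 kb downstream. At chr11:88547287-88547346 the probe was detected on all 4 B6 arrays and on 1 BTBR/R array. The remaining 3 were detected on all 8 arrays and overlapped between the strains, with differences of 0.15 ± 0.17, -0.08 ± 0.05 and -0.05 ± 0.07 (SE, n = 4 and 4) in 5′ to 3′ order. The last 2 of these share a RefSeq transcript and lie 5044 bases apart in it. The 3′-most, chr11:88152912-88152971, shared 16 bases on the opposite strand with a probe of the interferon-induced gene Xaf1 that was detected in the 4 BTBR/R mice alone. That Xaf1 probe was at least 101-fold higher in BTBR/R (limma adjusted p = 5.68e-06), with a log2 difference of 4.5 under the normexp correction, which lies below that bound. The Msi2 probe itself read 3.18 to 3.45 in B6 and 3.21 to 3.29 in BTBR/R.

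Mpp6 was the only one of the 6 genes whose extreme probe was lower in BTBR/R. This probe was the 3′-most of 3 and is annotated to a cDNA clone. It read 0.57, 0.43, 0.42 and 0.63 in B6 and -3.08, -3.11, -3.12 and -2.96 in BTBR/R. The strains did not overlap, and the signal was 11.9-fold lower in BTBR/R, a difference of -3.58 ± 0.07 (SE, n = 4 and 4). With the normexp correction it was -2.71. The middle probe, 4762 bases upstream, is annotated to a RefSeq transcript and read 3.20, 3.01, 3.08 and 3.12 in B6 and 3.24, 3.32, 3.29 and 3.29 in BTBR/R. Here too the strains did not overlap, but the difference was small and had the opposite sign, at 0.18 ± 0.05 (SE, n = 4 and 4). The 5′ probe, chr6:50130235-50130609, has 60 bases that span 375 bases of the genome. It read 3.58 to 3.76 in B6 and 3.57 to 3.73 in BTBR/R, a difference of 0.00 ± 0.06 (SE, n = 4 and 4).

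Prune2 had 7 probes over 167965 bases, and its extreme probe was the sixth in 5′ to 3′ order. It read -2.0, -2.32, -2.17 and -2.28 in B6 and -0.06, -0.01, -0.05 and -0.31 in BTBR/R. The strains did not overlap, and the signal was 4.24-fold higher in BTBR/R, a difference of 2.09 ± 0.10 (SE, n = 4 and 4). The extreme probe stood between a pair of probes on the same RefSeq transcript, 949 bases upstream and 1246 bases downstream, and these distances were equal in the transcript and in the genome. The upstream probe read -0.57, -0.68, -0.68 and -0.82 in B6 and -0.97, -0.99, -1.12 and -1.07 in BTBR/R. The downstream probe, chr19:17298028-17298087, read 2.19, 2.01, 2.14 and 2.32 in B6 and 2.55, 2.47, 2.53 and 2.51 in BTBR/R. Neither overlapped between the strains, but one was lower in BTBR/R by a difference of -0.35 ± 0.07 and the other was higher by 0.35 ± 0.07 (SE, n = 4 and 4). Of the 4 probes farther upstream, chr19:17268178-17268237 was detected on all 8 arrays and differed by 0.07 ± 0.08 (SE, n = 4 and 4). The probe at chr19:17290889-17290948 was detected on 4 B6 and 2 BTBR/R arrays. The first of the 7 was detected on 1 BTBR/R array alone and the second on none, so their signals do not measure a level in either strain.

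The single Kifc3 probe, chr8:97623952-97624011, read 0.60, 0.32, 0.46 and 0.52 in B6 and 0.62, 0.68, 0.56 and 0.73 in BTBR/R. The strains overlapped, and the difference was 0.17 ± 0.07 (SE, n = 4 and 4), or 1.13-fold.

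**Figure D1:**
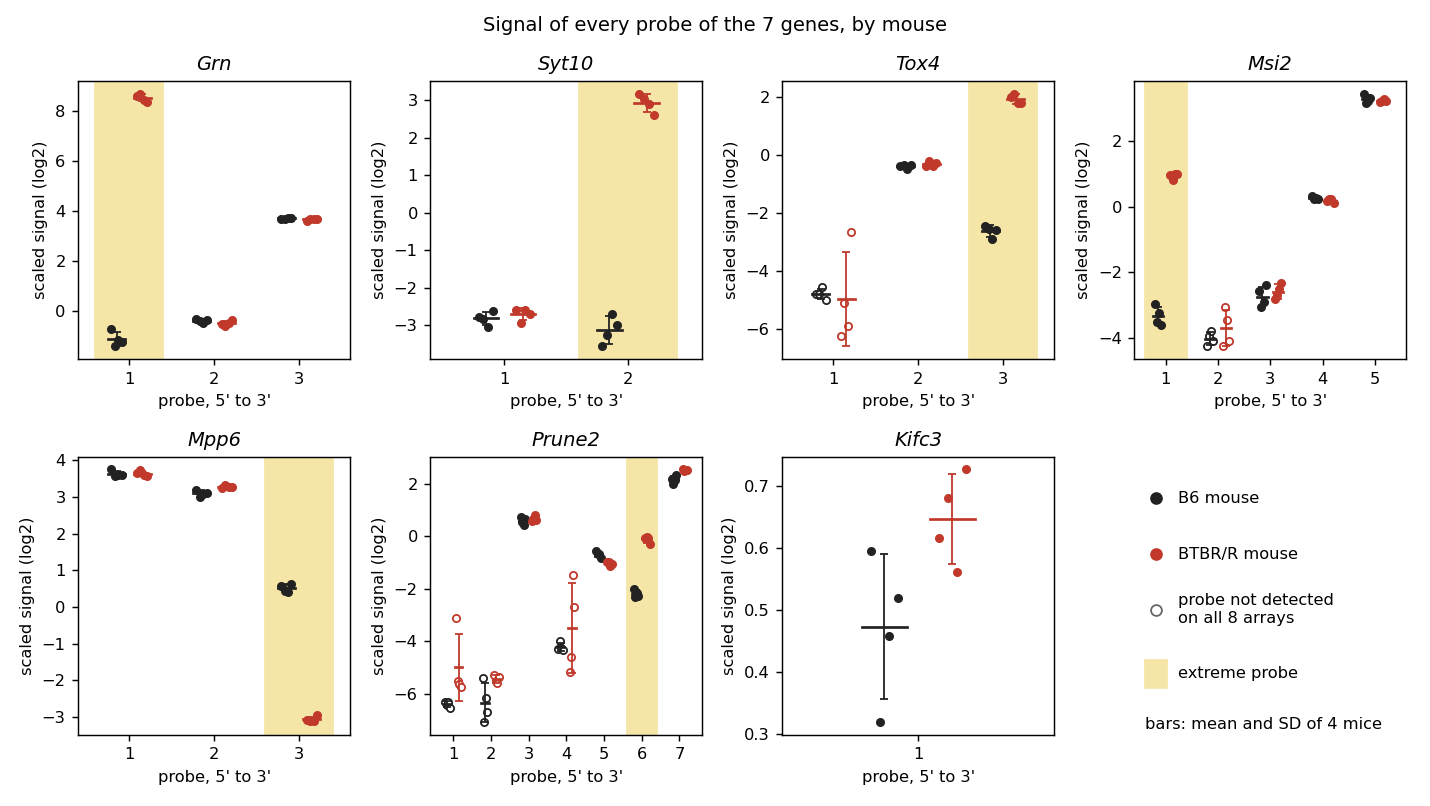
Scaled signal (log2) of all 24 probes of the 7 genes in each mouse, with probes in 5′ to 3′ order on the horizontal axis, B6 in black and BTBR/R in red, and bars for the mean and SD of 4 mice. The shaded extreme probes separate the strains without overlap, while the other probes detected on all 8 arrays (filled points) lie close together, and each panel has its own vertical scale.

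Across the 6 genes, 5 extreme probes were higher and 1 was lower in BTBR/R. Of the extreme probes, 4 were annotated to a RefSeq transcript and 2 to another kind of sequence. All 6 were without overlap between the strains, as the choice of genes implied. Of the 12 other probes detected on all 8 arrays, 3 did not overlap either, and those were the small differences of Mpp6 and Prune2 above. The SD among mice of a strain ranged from 0.10 to 0.37 for the extreme probes in B6 and from 0.08 to 0.24 in BTBR/R, and from 0.03 to 0.30 and 0.03 to 0.22 for the 12 others. As the choice of genes also implied, the extreme differences exceeded the spread between mice by far. The differences of those 12 other probes were at most 0.35 in size. For background, 22.4% of all 56605 probes were called at an adjusted p below 0.05 (limma, Benjamini-Hochberg) with at least a 2-fold difference, and 11413 of the 12697 called had the higher signal in BTBR/R. With quantile normalization 544 of 2200 called probes were higher, and with the normexp correction 231 of 563. When only the 35539 probes were kept that 1 strain or both detected in all 4 mice, the share was 4.41%, made up of 1.03% higher and 3.38% lower in BTBR/R. When the fit was limited to probes detected on all 8 arrays, 300 of 631 called probes were higher. Since these genes were picked from that contrast, nothing is read from the comparison.

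The pattern was rare on the array. Among 6508 genes with at least 2 probes detected on all 8 arrays, 22 (0.338%) had exactly 1 probe that differed by at least 2 on the log2 scale while all the others differed by less than 0.5. Of these, 11 had a higher and 11 a lower probe in BTBR/R, and 11 rested on 2 probes only. Ranked by the gap between the extreme probe and the largest of the others, Grn, Syt10, Tox4 and Msi2 took ranks 1 to 4, Mpp6 rank 6 and Prune2 rank 22. Because these genes were chosen for this pattern, their ranks are a description only. The gaps were 9.58 for Grn, 5.96 for Syt10, 4.46 for Tox4, 4.13 for Msi2, 3.40 for Mpp6 and 1.74 for Prune2. Prune2 was thus a member by a small margin, and with the normexp correction, where its extreme difference was 1.60, it left the pattern. Of the genes not listed, Nsg2 had the widest gap, with an extreme difference of -3.71, followed by Ankrd33b (-2.93), Map1b (2.79), Myl1 (2.92) and Sv2c (2.56).

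At the edges of these thresholds, Chrm3 (2.03), Prune2 (2.09) and Sp1 (-2.16) lay just inside, and Usp5 (1.99), Wwp2 (1.92) and Pirb (1.89) had largest differences just too small. In Trappc12, Osbpl10 and Wdr48 the second largest difference, 0.51, 0.51 and 0.56 in size, was just too large. Of 42 genes with a probe that differed by at least 2, 20 had another probe at 0.5 or more, and in 6 every probe passed 2.

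**Figure D2:**
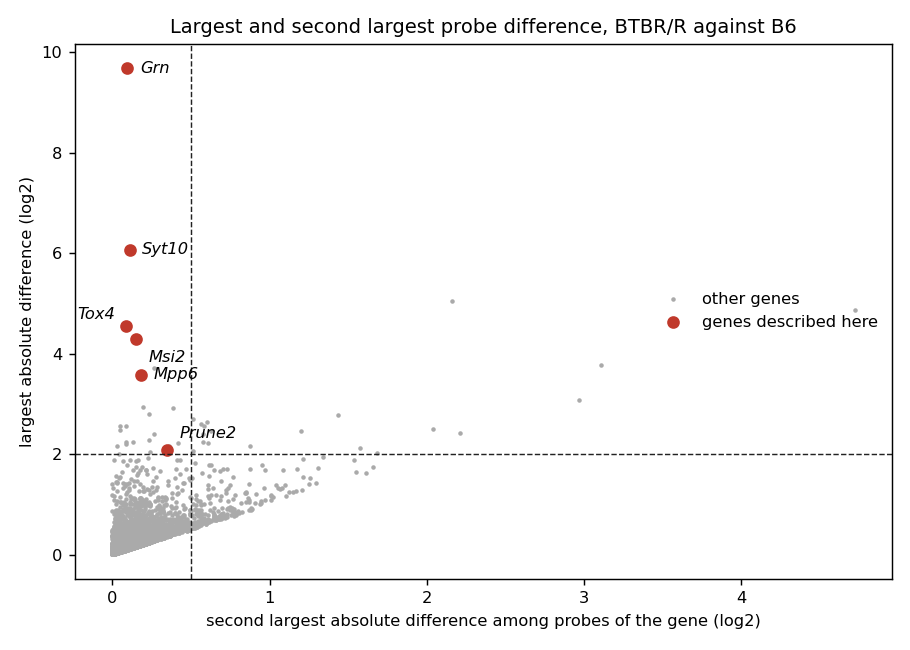
Largest against second largest absolute difference (log2) among the probes of each of 6508 genes, with dashed lines at 2 and 0.5 and the 6 genes with several probes in red. Grn lies alone at the top left with a largest difference of 9.68, and Prune2 lies just above the dashed line at 2.09.

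Relatives and partners of the 7 genes, which did not enter the choice, were then tested in the fit across all probes. Of 77 genes listed, 73 were found with 161 probes, of which 137 were detected by that rule. Among these, 2 probes rose and 1 fell in BTBR/R (2.19%, against 4.41% of all detected probes), and the median difference was 0.00. Over all 161 probes, with those not detected included, 12 were called, 11 of them higher, beside the 22.4% called on the whole array. The 3 called and detected probes belonged to Slpi and Ctsl of the progranulin and lysosome list and to Wdr82 of the TOX and PTW/PP1 list.

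Slpi encodes a protease inhibitor that protects progranulin from cleavage. One of its probes read -4.62, -5.43, -5.49 and -7.30 in B6, where 1 of 4 arrays detected it, and -1.62, -1.56, -1.69 and -1.75 in BTBR/R. It was at least 10.6-fold higher in BTBR/R (limma adjusted p = 0.000515), but with the normexp correction the difference was 1.70 on the log2 scale, below that bound, and was still called. A second Slpi probe, detected on 4 B6 and 2 BTBR/R arrays, differed by -0.53 (limma adjusted p = 0.363), and the last of the 3 Slpi probes was detected on no array. Ctsl encodes cathepsin L, a lysosomal protease that can cleave progranulin. One Ctsl probe read -3.15, -2.93, -2.99 and -2.95 in B6 and was not detected in any BTBR/R mouse, at least 1.63-fold lower (limma adjusted p = 5.04e-06), while the other differed by 0.12 (limma adjusted p = 0.0972). Slpi and Ctsl thus each had a called probe beside one that was not called.

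The remaining 23 detected probes of the progranulin and lysosome list were not called. The 3 probes of Sort1, its uptake receptor, differed by -0.01 to 0.13, and the 2 of Tmem106b, a lysosomal membrane protein linked to frontotemporal dementia, by 0.06 each. Psap, the prosaposin precursor that carries progranulin to lysosomes, differed by -0.09, Ctsb by -0.02 and Ctsd by -0.10. Hexa, a subunit of a lysosomal hexosaminidase, differed by -0.35 (limma adjusted p = 0.0061), short of 2-fold. Tfeb, a transcription factor of lysosomal genes, differed by -0.27 and 0.12 in its probes detected on all 8 arrays. Gpnmb, a glycoprotein of stressed macrophages, was detected on 3 B6 arrays and on no BTBR/R array.

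Wdr82, a partner of TOX4 in the PTW/PP1 complex, had a probe that read -3.18, -2.96, -2.99 and -3.01 in B6 and -1.76, -1.67, -1.49 and -1.67 in BTBR/R. The strains did not overlap, and the probe was 2.62-fold higher in BTBR/R (limma adjusted p = 2.76e-05), but with the normexp correction it differed by 0.85 and was not called. A second Wdr82 probe differed by 0.36 and fell short of 2-fold. No detected probe was called among the 23 of the synaptotagmins, the 17 of the Musashi and RNA-binding list, the 25 of the p55 scaffolds and Lin7, the 7 of the Prune and BCH-domain list or the 18 of the kinesin list. Syt1, the main calcium sensor of fast transmitter release, differed by -0.05 to -0.39 over 3 probes. Msi1, the close relative of Msi2, differed by 0.03 and 0.41 in its probes detected on all 8 arrays, and a further Msi1 probe was not well above background on any BTBR/R array. Cask, a scaffold that binds Lin7, differed by -0.08 to 0.13 in the 3 probes that were detected on all 8 arrays. Of Prune, 1 probe differed by -1.0 and stayed just under 2-fold, at 1.998-fold lower (limma adjusted p = 5.14e-05), beside a probe at -0.18 that was also detected on all 8 arrays.

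**Figure D3:**
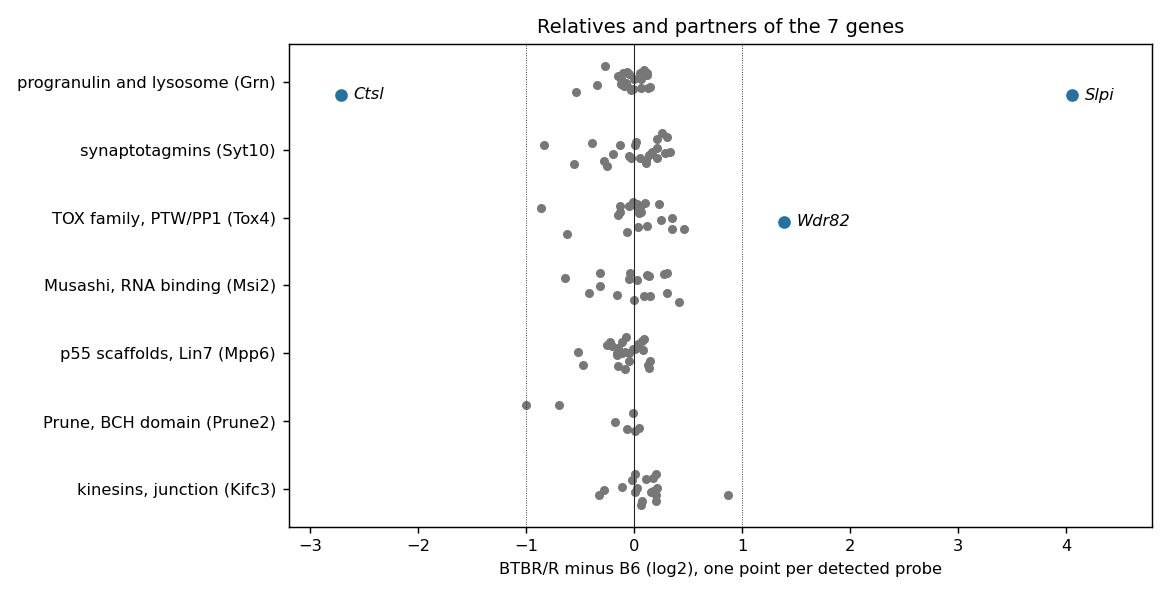
Strain difference (log2, BTBR/R minus B6) of each detected probe of the relatives and partners, in 1 row per list with the related member in brackets, called probes in blue and dotted lines at 2-fold. Called probes appear only for Slpi, Ctsl and Wdr82, and the other 134 points lie between the dotted lines.

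Probes of other genes within 500 kb of each member were tested in the same way, to see whether the extreme probes stood in stretches of the genome where much differed. There were 317 such probes from 214 genes, and 213 were detected in all 4 mice of 1 strain or both. Of these 5 were called as higher and 9 as lower (6.57%, against 4.41% of all detected probes), and the median difference was 0.02. When the fit was limited to probes detected on all 8 arrays, 5 neighbours were called, 4 of them higher. The balance of directions thus changed with the detection rule. Over all 317 probes, with those not detected included, 63 were called, 54 of them higher, beside the same 22.4% on the whole array, where 11413 of 12697 were higher. The share was highest around Msi2 with 5 of 34 and Mpp6 with 2 of 14, and around Tox4 none of 39 was called. Around Syt10 it was 3 of 28, around Prune2 1 of 14, around Kifc3 2 of 34 and around Grn 1 of 50.

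Close to the extreme probes of Tox4, Grn and Mpp6, several neighbours differed by less than 2-fold. The nearest Mettl3 probes, 579 bases upstream and 704 bases downstream of the extreme Tox4 probe on the other strand, differed by -0.14 and 0.19 (limma adjusted p = 0.0859 and 0.0579). Mettl3 encodes the catalytic subunit of the main mRNA m6A methyltransferase. Fam171a2, 3.74 kb from the extreme Grn probe, differed by -0.12 (limma adjusted p = 0.433). Dfna5, which encodes a gasdermin, had probes 2.83 kb upstream and 4.38 kb downstream of the extreme Mpp6 probe on the other strand, with differences of 0.00 (limma adjusted p = 0.998) and -0.38 (limma adjusted p = 0.00135), both under 2-fold.

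An exception was AK033721, a cDNA clone 2.92 kb downstream of the extreme Mpp6 probe on the same strand. It read -2.58, -3.03, -3.02 and -2.76 in B6 and -1.29, -1.61, -1.31 and -1.40 in BTBR/R. It was 2.72-fold higher in BTBR/R (limma adjusted p = 5.05e-05), opposite in sign to the extreme Mpp6 probe, and with the normexp correction its difference of 0.95 fell short of the 2-fold threshold. The other called neighbour of Mpp6, 5430402O13Rik at 391.7 kb, was not detected in any BTBR/R mouse and fell by at least 1.35-fold (limma adjusted p = 4.53e-05).

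Around Msi2, C030037D09Rik lay 18.3 kb upstream of the extreme probe on the other strand. It read -1.70, -1.57, -1.71 and -1.81 in B6 and was not detected in any BTBR/R mouse, at least 4.03-fold lower (limma adjusted p = 7.67e-07), and the normexp log2 difference of -1.89 was slightly smaller than that bound. Its other probe, 12.4 kb upstream, was detected on all 8 arrays, differed by 0.61 and was not called, so this neighbour also had probes that disagreed. Cuedc1 was 4.67-fold higher in BTBR/R (limma adjusted p = 1.26e-05) with a second probe at -0.08 that no BTBR/R array detected. Dgkeos, an antisense transcript of a diacylglycerol kinase gene, was 4.32-fold higher (limma adjusted p = 2.09e-05), a log2 difference of 2.11 that was 1.09 with the normexp correction. Gm525 was called lower at an adjusted p (limma) of 0.000632, but no BTBR/R array detected it and the bound gave no fold. The same held for 0610039H22Rik (limma adjusted p = 0.0238).

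Gcnt1, which encodes a glycosyltransferase that makes branched O-glycans, lay 104 kb downstream of the extreme Prune2 probe. Its probe read -1.41, -1.67, -1.88 and -1.26 in B6 and was not detected in any BTBR/R mouse, at least 4.44-fold lower (limma adjusted p = 5.11e-06), and the normexp log2 difference of -2.0 was slightly smaller than that bound. Near Kifc3, Ccl17, a chemokine gene, read -1.18 to -1.41 in B6 and 0.59 to 0.79 in BTBR/R, and was 4.01-fold higher (limma adjusted p = 4.88e-06). 1700121C10Rik, 306 kb away, was at least 2.39-fold higher (limma adjusted p = 0.00374), and with the normexp correction its log2 difference was 0.54 and was not called. Near Syt10, the called probes among the detected ones were all of Rabl2, a small GTPase gene, whose probe detected on all 8 arrays was 2.08-fold lower (limma adjusted p = 7.04e-06). With the normexp correction, 5 neighbours were called, which were C030037D09Rik, Cuedc1, Dgkeos, Gcnt1 and Ccl17.

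Slc4a1, the anion exchanger of red blood cells, was the only probe called among the 50 detected neighbours of Grn and was not detected in any BTBR/R mouse (limma adjusted p = 0.0174). Red blood cell markers moved with strain in the same direction. Of their 5 probes, 4 were called lower, with a median difference of -1.18, and their summed processed signal was 62481 to 195979 in B6 and 41212 to 53503 in BTBR/R, with none of the markers undetected. The part of blood in the value of Slc4a1 was not tested. In bulk tissue, fewer cells of a type and less RNA per cell cannot be told apart. Microglia, which express Grn, had a summed marker signal of 26334 to 27053 in B6 and 24795 to 27317 in BTBR/R over 7 probes, and all 5 marker genes were detected on all 8 arrays. Of these probes 1 was called, for Cx3cr1, at 1.71, while the other Cx3cr1 probe differed by -0.71. Markers of cortical excitatory, striatal projection and inhibitory neurons, oligodendrocytes, astrocytes and choroid plexus were detected and had no called detected probe. No detected probe was called for cerebellum or thalamus either, where 5 of 8 probes were detected. Median differences were -0.27 for oligodendrocytes, 0.16 for inhibitory neurons, -0.32 for cerebellum or thalamus and -0.06 to 0.05 for the rest. Detected probes ranged from -0.80 to 0.48 for oligodendrocytes and from 0.02 to 0.83 for inhibitory neurons.

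**Figure D4:**
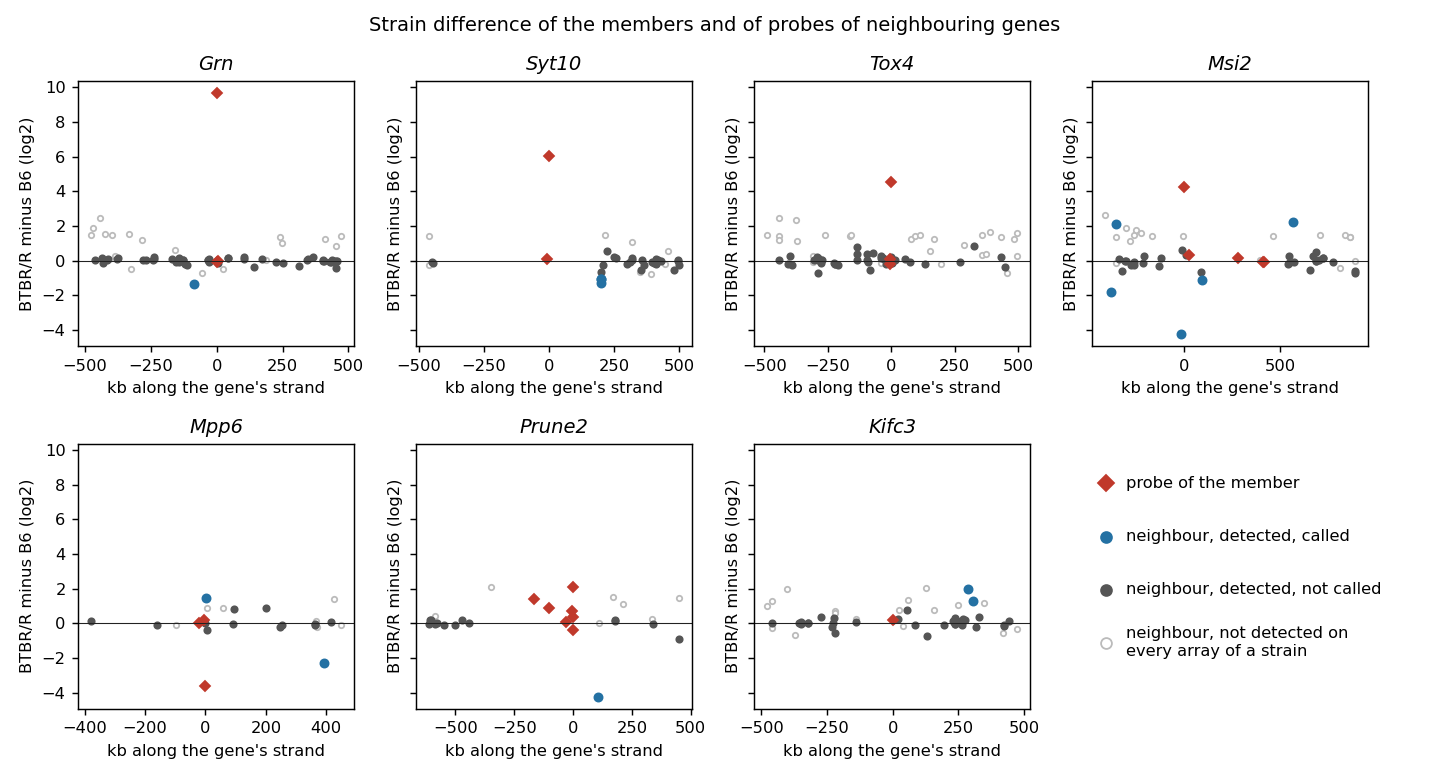
Strain difference (log2, BTBR/R minus B6) of member probes (red) and of probes of other genes within 500 kb of each member, against the distance from the extreme probe in kb along the strand of the member. Called detected neighbours are blue, other detected neighbours grey and the rest open. The extreme probes of Grn, Syt10, Tox4 and Msi2 lie above all neighbours in their panels, with differences of 9.68, 6.07, 4.55 and 4.28.

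The probes of other genes most like each extreme probe over the 8 arrays followed the same step between the strains. By Pearson correlation they were LOC100862444 and AA465934 for Grn, Gm10653 and LOC102640344 for Syt10, Rcc2 and Ahdc1 for Tox4, Nudc and AK047121 for Msi2, Rps2 and Galk2 for Mpp6, and Slc15a2 and Sv2c for Prune2, with r from 0.998 to 0.9997 over 8 arrays. Between 106 and 268 probes had r above 0.99 with each of these 6. Probes with a strain step that is large beside their spread can reach such values, and all share a slide. Most of the named probes differed by less than the member they followed, and Sv2c differed by more than Prune2, at 2.56. For Kifc3, which had no such step, Selo (r = 0.987) and Lsg1 (r = 0.979) were nearest, and no probe had r above 0.99.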

How the data were processed

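For the authors, a company labelled cRNA made from the total RNA of each mouse and hybridized it to an Agilent 1-colour mouse array, and spots were measured with Feature Extraction 10.7.3.1, per the file headers. The authors deposited the spot intensity columns, among them the processed signal, which is background subtracted with low values replaced, and log2 values made with GeneSpring, used here as an alternative. The authors' probe annotation gives mm9 positions, and start and end order was read as strand. No genome sequence was used here, so exons and untranslated regions are not stated.

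Control and outlier spots (36 to 52 per array) were left out of 62976 spots, and repeated spots were averaged. Scaled signals were fitted in R 4.3.3 by lmFit and eBayes of limma 3.58.1, with Benjamini-Hochberg adjustment over 56605 probes. Called means an adjusted p below 0.05 and at least 2-fold. The fit was tested on simulated data. Tables and plots used Python 3.11.15, numpy 2.4.6, pandas 2.3.3 and matplotlib 3.10.9. A fold against a strain in which arrays failed to detect a probe is a lower bound, set against the mean of the higher of each array's detection limit and the probe's own signal.

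Samples were grouped by the strain in their labels. The members and gene lists were chosen with earlier results of these data known. Named genes were all members, called detected relatives and up to 10 called neighbours with the largest difference, the 5 other genes with the widest gap, and the 2 probes most alike per member. The nearest neighbours, Rabl2, 0610039H22Rik, Cx3cr1, second probes and other relatives with values were named after their values were seen. Alternatives were normexp correction (offset 50), quantile, median or detected-probe scaling, the authors' log2 values, detection filters, a floor at the detection limit, a replicate block, limma with trend and robust settings, the methods' t-test, other thresholds, a 250 kb window and leaving out each mouse.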

Additional observations from a re-analysis of the deposited data

Results flagged for a closer look

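Of 48 groups of 4 mice examined, 4 held a mouse that stood apart from the others of its strain, where chance flags about 1 in 20 groups. For the Mpp6 probe at chr6:50130235-50130609, B6 replicate 1 read 3.756 on the scaled log2 signal, against 3.58 to 3.60 in the other B6 mice. For the extreme Prune2 probe, BTBR/R replicate 4 read -0.3089, against -0.06 to -0.01. For the Prune2 probe at chr19:17268178-17268237, BTBR/R replicate 3 read 0.7937, against 0.59 to 0.62. For the first Prune2 probe, BTBR/R replicate 1, the 6-month-old mouse, read -3.099, against -5.74 to -5.53, signals of arrays that did not detect the probe.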

How the results depend on the processing

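None of the extreme differences changed sign under the alternatives run. With the normexp correction the extreme differences were 9.33 for Grn, 5.0 for Syt10, 3.86 for Tox4, 3.20 for Msi2, -2.71 for Mpp6 and 1.60 for Prune2, and 13 genes had the one-probe pattern, 12 of them among the 22 and 5 of them members. With an extreme probe set at 1 or more on the log2 scale, 157 genes had it. Called probes numbered 563 with normexp, 2200 with quantile normalization (544 higher), 1557 and 631 with detection on every array of a strain or on all 8, and 789 with the floor, against 12697, and the methods' t-test (11777 adjusted, 13172 unadjusted) and limma with trend and robust settings stayed within 1.5 times. In the same order of settings, called neighbours numbered 5, 18, 14, 5 and 7, against 63 with undetected probes included, and 26 within 250 kb. Called relatives numbered 2, 4, 3, 1 and 2, against 12 counted likewise. The cause was not tested, beyond the fewer probes that the filters test. Leaving out 1 mouse gave 9.58 to 9.81 for Grn, 5.92 to 6.21 for Syt10, 4.46 to 4.61 for Tox4, 4.19 to 4.40 for Msi2, -3.62 to -3.54 for Mpp6, 2.04 to 2.15 for Prune2 and 0.12 to 0.21 for Kifc3, and counts of 22 to 24 genes, 58 to 65 neighbours, 11 to 15 relatives and 11792 to 12929 probes. Same-numbered mice did not deviate together (r from -0.07 to 0.16), and with the replicate number as a block 11693 probes, 57 neighbours, 12 relatives and 22 genes were called or had the pattern. The correlation of deviations within strains was planned and not run, since each strain had 4 mice. Dim probes are limited by the higher detection limit in BTBR/R.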
